A study of Mus musculus with 172 samples.

Results

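The cell adhesion receptors of the late inner cell mass (ICM) described here are 10 genes of 49671 counted in every cell: the cadherins Cdh1 and Cdh6, the integrin subunits Itga5, Itga6, Itgav and Itgb1, and the surface proteins Epcam, Emb, Flrt3 and Ceacam1. They were picked by symbol, with their levels across the 5 cell groups of the study already known, so differences between those groups are given below as descriptions without p-values. Their calls in the fits across all genes are counted for those groups but are no independent evidence, and only E3.5 HET against WT played no part in the choice. Single ICM cells of mouse blastocysts were profiled by Smart-seq2 RNA sequencing after Pou5f1 HET inter se mating on mixed genetic backgrounds, to ask how the ICM fails without the transcription factor OCT4. The outer trophectoderm (TE) was lysed by immunosurgery (described in the labels for E3.5) and used for genotyping, and only cells that passed quality control before deposit are present.

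The E3.5 (mid blastocyst) cells comprised 42 WT cells from 5 embryos and 16 HET cells (Oct4+/-) from 2 embryos, joined here as WT/HET, and 29 MUT cells without functional Pou5f1 from 4 embryos. The E4.5 (late blastocyst) cells comprised 37 epiblast (EPI) and 29 primitive endoderm (PrE) cells, both from the same 6 WT or HET embryos, and 19 MUT cells from 2 embryos. EPI gives rise to the fetus and PrE to the yolk sac endoderm. EPI and PrE identities are those of the sample labels, and the study had assigned them from the same transcriptomes, so a difference between EPI and PrE is not independent of the assignment. MUT embryos lacked Pou5f1 throughout, not in the ICM alone. E3.5 and E4.5 cells came from different plates, so stage and plate cannot be told apart.

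Cadherins bind the same cadherin on the neighbouring cell in a calcium-dependent way and connect through catenins to actin. Integrins are pairs of an alpha and a beta subunit that bind extracellular matrix: alpha5-beta1 binds fibronectin, alpha6-beta1 binds laminin, and alphaV pairs with several beta subunits and binds fibronectin and vitronectin. Epcam is an epithelial adhesion molecule, Emb (embigin) an immunoglobulin-family glycoprotein that chaperones monocarboxylate transporters, Flrt3 a leucine-rich repeat protein that binds UNC5 and latrophilin receptors, and Ceacam1 a cell-cell adhesion molecule of the carcinoembryonic antigen family. In the late ICM, PrE cells come to lie on a laminin-rich basement membrane next to EPI.

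Counts were summed over the cells of each embryo, separately for EPI and PrE, which gave 25 sums of 2736296 to 17453036 counts from 2 to 11 cells each. Levels below are CPM, the usual counts relative to library size, after trimmed-mean scaling of these sums. The PrE sum of embryo 6 held 2 cells and was the shallowest. Pou5f1, the targeted gene, lay at 205 to 432 CPM in E3.5 WT/HET, at 2.76 to 5.96 CPM in E3.5 MUT, at 45.7 to 248 CPM over the EPI and PrE sums and at 0 in both E4.5 MUT embryos. All 8 markers of each lineage differed between EPI and PrE in the labelled direction. The 12 TE markers summed to 271 to 1067 CPM in E3.5 WT/HET and 1294 to 2329 CPM in E3.5 MUT, and to 150 to 380 CPM in EPI, 831 to 1748 CPM in PrE and 9093 to 10213 CPM in E4.5 MUT, where all 12 had counts. A few genes carried these sums, with Fabp3 at 985 CPM on average in PrE and Fabp3, Krt8 and Krt18 at 4253, 2016 and 1631 CPM in E4.5 MUT. Of 10 TE markers tested in E3.5 MUT against WT/HET 4 were called higher and 0 lower. Means were lower in MUT for Tfap2c (70.2 against 105 CPM), Cdx2 (1.85 against 2.63 CPM) and Gata2 (0 against 1.78 CPM). Those of Krt8 (196 against 199 CPM) and Elf5 (0.344 against 0.456 CPM) were also lower in MUT. The part of the 12 TE markers in the MUT results below was not tested. The 8 EPI markers summed to 8175 and 11392 CPM in E4.5 MUT, mostly Dppa5a (8949 CPM ± 1791 SD, n = 2), with Gdf3 at 0, and the 8 PrE markers to 409 and 596 CPM, with Sox7 and Foxa2 at 0. In summed cells, fewer expressing cells and less RNA per cell cannot be told apart, so shares of cells are given as well.

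The promoters of Cdh6, Emb and Flrt3, which were highest in PrE and at or near 0 in both MUT groups, and of Ceacam1, which was high in E4.5 MUT and at 0 in PrE, are shown because the levels of these 4 genes differed sharply between groups. Windows were the 250 bases before the RefSeq transcript start on GRCm38.p6, read in the direction of transcription. Windows were given for 8 of the 10 genes, not for Cdh1 and Itga6. Capitals mark matches on either strand to any of 6 motifs searched: the POU octamer ATGCAAAT, the GATA motif AGATAA, the TEAD motif GGAATG, the GC box GGGCGG, the E-box CACGTG and the SOX motif ACAAAG. The Cdh6 window is chr15:13173676-13173925 on the minus strand, the Emb window chr13:117220323-117220572 on the plus strand, the Flrt3 window chr2:140671477-140671726 on the minus strand and the Ceacam1 window chr7:25477626-25477875 on the minus strand.
Cdh6: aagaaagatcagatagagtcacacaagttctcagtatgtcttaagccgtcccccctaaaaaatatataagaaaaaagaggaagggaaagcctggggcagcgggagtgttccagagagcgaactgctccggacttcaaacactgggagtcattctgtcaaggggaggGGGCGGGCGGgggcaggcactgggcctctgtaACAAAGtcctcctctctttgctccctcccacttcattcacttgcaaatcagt
Emb: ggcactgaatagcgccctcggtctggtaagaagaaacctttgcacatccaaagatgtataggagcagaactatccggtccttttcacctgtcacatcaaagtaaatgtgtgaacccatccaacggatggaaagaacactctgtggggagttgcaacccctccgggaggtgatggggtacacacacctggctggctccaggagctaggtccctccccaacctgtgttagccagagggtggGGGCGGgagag
Flrt3: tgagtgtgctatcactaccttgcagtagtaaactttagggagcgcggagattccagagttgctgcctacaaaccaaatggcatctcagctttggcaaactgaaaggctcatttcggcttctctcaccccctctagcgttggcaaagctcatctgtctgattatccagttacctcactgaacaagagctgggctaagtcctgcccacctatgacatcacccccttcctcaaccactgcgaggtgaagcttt
Ceacam1: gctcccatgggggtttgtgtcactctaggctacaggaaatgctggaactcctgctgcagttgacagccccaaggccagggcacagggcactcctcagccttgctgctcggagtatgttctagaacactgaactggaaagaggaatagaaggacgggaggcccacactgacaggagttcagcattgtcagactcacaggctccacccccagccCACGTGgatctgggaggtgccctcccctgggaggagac
Cdh6 carried 2 overlapping GC boxes and 1 SOX motif, Emb 1 GC box, Ceacam1 1 E-box and Flrt3 none of the 6. No octamer and no GATA motif was found in any of the 8 windows; they occur in 1.60% and 9.99% of all 32851 promoter windows of this length. The GC box, present in 5 of the 8 (Itgb1, Emb, Cdh6, Itga5 and Epcam), occurs in 32.7% of all windows, the SOX motif (Itgb1 and Cdh6) in 16.5%, the TEAD motif (Itgb1) in 12.6% and the E-box (Ceacam1) in 6.02%. The Emb window lies inside the longer Emb gene span given below, which starts further upstream.

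Flrt3, Emb, Cdh6 and Itga5 were higher in PrE. In the same 6 embryos each of them was higher in the PrE sum than in the EPI sum of every embryo, with median EPI-minus-PrE differences of -8.98, -3.55, -5.84 and -3.21 on the log2(CPM + 1) scale.

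Emb (chr13:117208536-117274415, plus strand) lay at 351, 742 and 1028 CPM (lowest, median and highest) over the 6 PrE sums and at 0.232, 74.3 and 133 CPM over the 6 EPI sums. PrE and EPI embryos did not overlap, and the EPI mean stood between PrE and all other groups. The fitted log2 fold change of EPI over PrE was -3.38 ± 0.76 (SE). In E3.5 WT/HET the highest of 7 embryos reached 3.28 CPM and 4 embryos were at 0, E3.5 MUT was at 0 in all 4 embryos, and the 2 E4.5 MUT embryos were at 0.0599 and 0 CPM, from 1 count in all. Emb therefore had counts in 29 of 29 PrE cells, in 26 of 37 EPI cells (70.3%, exact 95% interval 53.0 to 84.1%), in 3 of 58 E3.5 WT/HET cells, in 0 of 29 E3.5 MUT cells, which allows a share of up to 10.3%, and in 1 of 19 E4.5 MUT cells. The limit for a count of 0, here and below, is 3 cells of the total and lies below the upper bound of the exact interval, which was 11.9% for 0 of 29, 9.49% for 0 of 37 and 17.6% for 0 of 19 cells. All intervals and limits on shares cover counting error only. The PrE cells ranged from 217 to 1647 CPM and the EPI cells from 0 to 410 CPM, so the lowest PrE cell was below the highest EPI cells. Over pooled counts Emb was 2384 times lower in E4.5 MUT than in EPI (counting interval 428 to 94200) and 24116 times lower than in PrE (4328 to 952562). Emb overlaps the protein-coding gene Gm17509 on the other strand.

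Flrt3 (chr2:140650914-140671469, minus strand, inside Macrod2 on the other strand) lay at 531, 704 and 1029 CPM in PrE. In EPI it lay at 0, 0.515 and 69.7 CPM, again without overlap with PrE, and the log2 fold change of EPI over PrE was -5.66 ± 1.36, or -8.84 with the embryo as a block. Embryo 2 (69.7 CPM) and embryo 4 (17.1 CPM) held nearly all Flrt3 counts of EPI. All 29 PrE cells had counts, from 118 to 1482 CPM, against 6 of 37 EPI cells, of which 3 reached 10 CPM. A single EPI cell of embryo 2 held 70.0% of the group's Flrt3 counts, at 288 CPM, and also had Dab2, a PrE marker, at 274 CPM, with Sox17 at 2.19 CPM, Gata6, Gata4 and Pdgfra at 0 and Nanog at 116 CPM. The other 2 cells, both of embryo 4, had Flrt3 at 50.6 and 57.0 CPM with Nanog at 591 and 560 CPM and Dab2 at 0.657 and 54.3 CPM. Flrt3 had counts in 2 of 58 E3.5 WT/HET cells, 0 of 29 E3.5 MUT cells (up to 10.3%) and 1 of 19 E4.5 MUT cells, and the 2 E4.5 MUT embryos lay at 0 and 0.322 CPM. The fitted log2 fold change of E4.5 MUT over PrE was -12.22 ± 0.86.

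Cdh6 (chr15:13028701-13173675, minus strand), a type II cadherin, lay at 22.8, 59.0 and 134 CPM in PrE and was detected in 24 of 29 PrE cells (82.8%, 64.2 to 94.2%). It had no count in any of 37 EPI cells, 29 E3.5 MUT cells or 19 E4.5 MUT cells, which allows shares of up to 8.11%, 10.3% and 15.8%. One E3.5 WT cell had 18 counts. A floor of 3 counts was set over each group at 0. Over pooled counts Cdh6 was then at least 1399-fold higher in PrE than in EPI and at least 668-fold higher than in E4.5 MUT. Here and below, such a floor covers counting error of independent counts only. Counts came by cell, as in the E3.5 cell with 18, so the floors do not hold for the shares of cells that a 0 allows. Among PrE embryos, embryo 7 (134 CPM) was highest and embryo 1 (22.8 CPM) lowest.

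**Figure D1:**
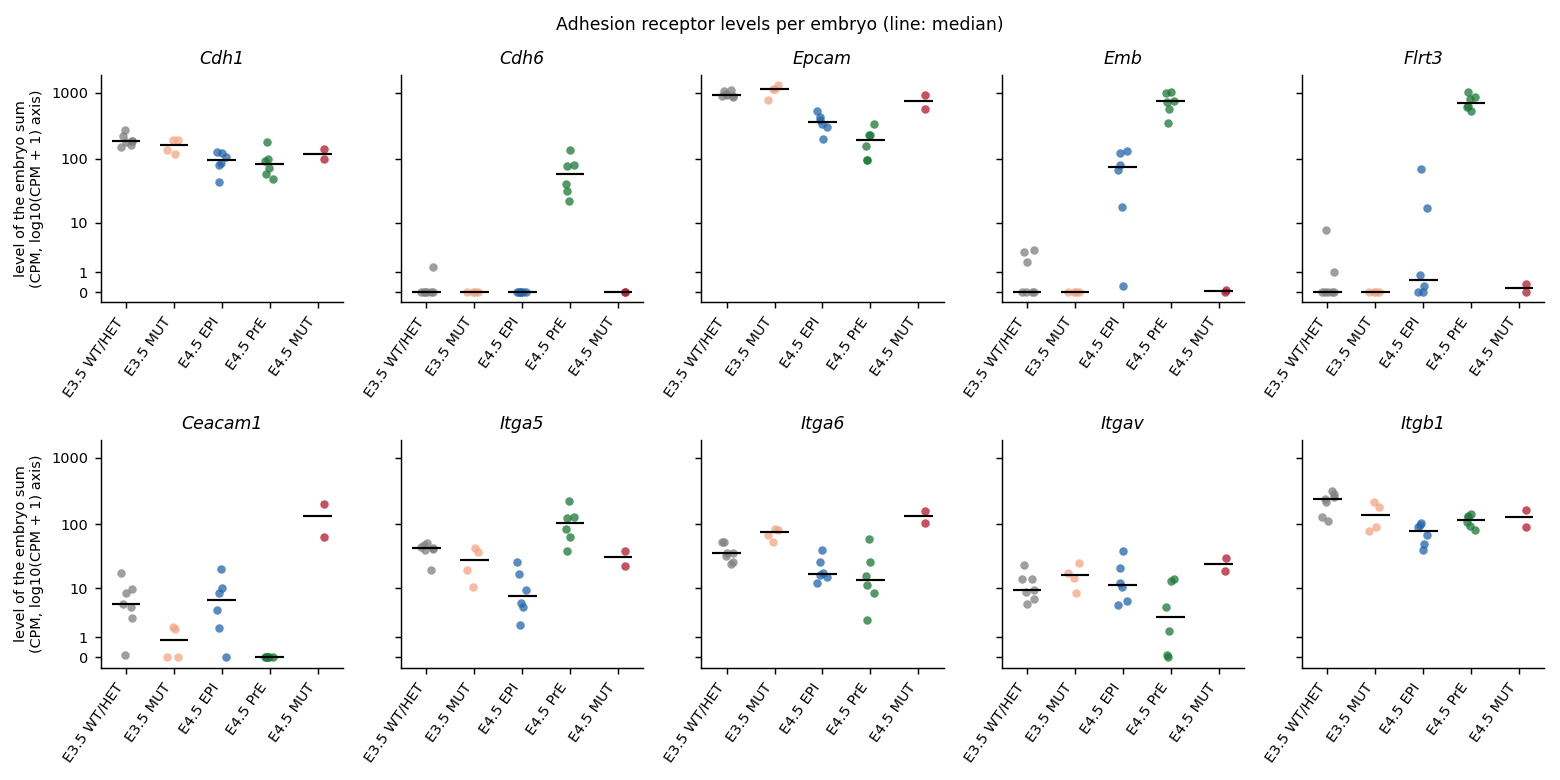
Levels of the 10 adhesion receptors in each embryo sum (points; CPM on a log10(CPM + 1) axis) of the 5 groups, with the median as a line. Cdh6, Emb and Flrt3 stand high in all 6 PrE sums and at or near 0 in both MUT groups, Ceacam1 and Itga6 are highest in the 2 E4.5 MUT embryos, and Cdh1 and Itgb1 overlap across most groups.

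Itga5 (chr15:103344286-103366763, minus strand), the fibronectin-binding alpha subunit, lay at 38.97, 104 and 227 CPM in PrE and at 2.12, 7.44 and 26.5 CPM in EPI, with no overlap. For Itga5 the log2 fold change of EPI over PrE was -3.35 ± 0.62. Unlike the genes above, Itga5 was present before the lineages separated: E3.5 WT/HET embryos lay at 19.7, 42.5 and 51.3 CPM, and the E3.5 MUT embryos at 10.5, 42.9, 19.6 and 36.9 CPM, overlapping WT/HET. The E4.5 MUT embryos lay at 39.002 and 22.6 CPM, overlapping both the EPI range and, just, the PrE range. Itga5 had counts in 56 of 58 E3.5 WT/HET cells, 28 of 29 PrE cells, 22 of 29 E3.5 MUT cells, 14 of 37 EPI cells and 9 of 19 E4.5 MUT cells. From E3.5 WT/HET the fitted log2 fold change was 1.43 ± 0.35 to PrE and -1.89 ± 0.51 to EPI, although 1 or more embryos overlapped in each case.

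In PrE, then, all 29 cells had counts of both Emb and Flrt3, and the 24 cells with Cdh6 counts were among them. In EPI, 5 of 37 cells had counts of both Emb and Flrt3, 21 of Emb alone and 1 of Flrt3 alone. Across the 29 PrE cells, after removing embryo means, levels of the PrE receptors hardly went together: Pearson's r of log2(CPM + 1) was 0.18 for Emb and Flrt3, 0.07 for Cdh6 and Flrt3 and -0.11 for Cdh6 and Emb. The closest pair in PrE cells was Itga5 with its beta partner Itgb1 (r = 0.57). Cells of 1 embryo share their source and differ in depth, and these values are descriptions over cells.

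**Figure D2:**
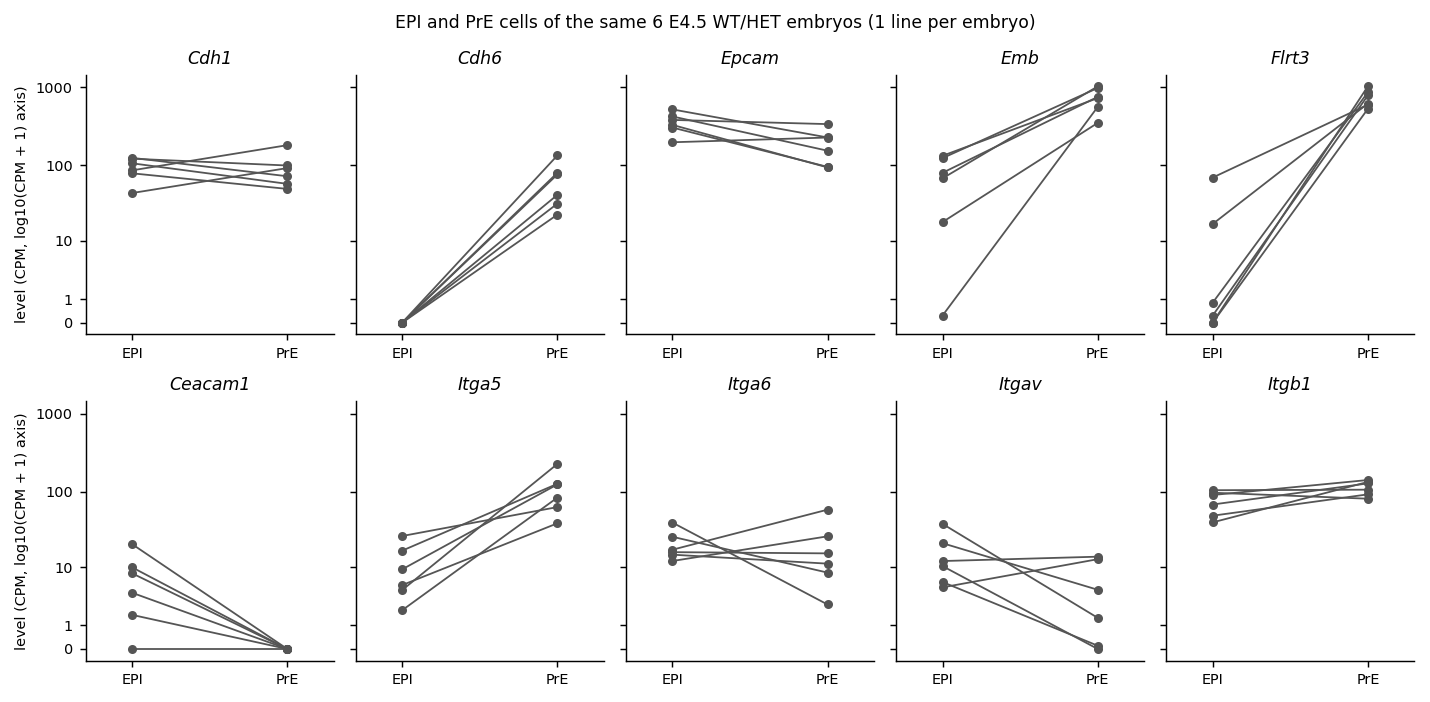
EPI and PrE levels (CPM on a log10(CPM + 1) axis) of the 10 receptors in the same 6 E4.5 WT/HET embryos, 1 line per embryo. All 6 lines rise from EPI to PrE for Cdh6, Emb, Flrt3 and Itga5, 5 of 6 rise for Itgb1, and 5 of 6 fall for Epcam and for Ceacam1.

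Among all 9762 genes tested between EPI and PrE, 5.2% were called lower and 4.61% higher in EPI at an adjusted p under 0.05. Of the 10 receptors, 9 passed the filter on low counts and 4 were called lower in EPI, which are the 4 described above and were chosen knowing this contrast. Ceacam1 did not pass that filter.

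Ceacam1 (chr7:25461707-25477603, minus strand) was high in E4.5 MUT and at 0 in PrE. The E4.5 MUT embryos lay at 203 and 64.6 CPM, above the highest embryo of every other group. E3.5 WT/HET lay at 0.0905, 5.34 and 17.8 CPM, EPI at 0, 6.21 and 20.7 CPM, and PrE at 0 in all 6 embryos. At E3.5, by contrast, MUT embryos were low, at 1.89, 1.66, 0 and 0 CPM, overlapping the range of WT/HET. Ceacam1 had counts in 24 of 58 E3.5 WT/HET cells (41.4%, 28.6 to 55.1%), in 2 of 29 E3.5 MUT cells (6.90%, 0.846 to 22.8%), in 8 of 37 EPI cells, in 0 of 29 PrE cells (up to 10.3%) and in 15 of 19 E4.5 MUT cells (78.9%, 54.4 to 93.9%). With cells thinned to the same depth of 927065 counts, leaving out 18 shallower cells, it was found in 19 of 48, 2 of 25, 6 of 35, 0 of 28 and 14 of 18 cells in the same order. In the 2 E4.5 MUT embryos 9 of 11 and 6 of 8 cells had counts, and the level in single cells reached 675 CPM. The fitted log2 fold change from E3.5 MUT to E4.5 MUT was 7.15 ± 1.38 and that from EPI to E4.5 MUT 4.10 ± 1.24. Over pooled counts Ceacam1 was at least 2364-fold higher in E4.5 MUT than in PrE and at least 142-fold higher in EPI than in PrE. An antisense transcript, 4732471J01Rik, overlaps Ceacam1, and reads of the pair cannot be told apart where counting ignores strand.

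Itga6 (chr2:71745616-71858416, plus strand), the laminin-binding alpha subunit, was higher in MUT at both stages. E3.5 MUT embryos lay at 53.1, 84.4, 68.1 and 81.5 CPM against 24.6, 36.3 and 52.8 CPM (lowest, median and highest) in E3.5 WT/HET, so that the lowest MUT embryo was just above the highest WT/HET embryo. The fitted log2 fold change was 0.97 ± 0.24. At E4.5 the MUT embryos lay at 161 and 105 CPM, EPI at 12.2, 16.8 and 39.9 CPM and PrE at 2.69, 13.4 and 58.7 CPM. Both MUT embryos were above every EPI and PrE sum, by fitted log2 fold changes of 2.60 ± 0.48 and 2.66 ± 0.85. Itga6 had counts in 56 of 58 E3.5 WT/HET cells, 27 of 29 E3.5 MUT cells, 25 of 37 EPI cells, 16 of 29 PrE cells and 16 of 19 E4.5 MUT cells. In E4.5 MUT, 12 of 19 cells had counts of both Itga6 and Ceacam1, 4 of Itga6 alone and 3 of Ceacam1 alone. The TE marker sums given above were also higher in E3.5 MUT than in E3.5 WT/HET, and in E4.5 MUT than in EPI and PrE.

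**Figure D3:**
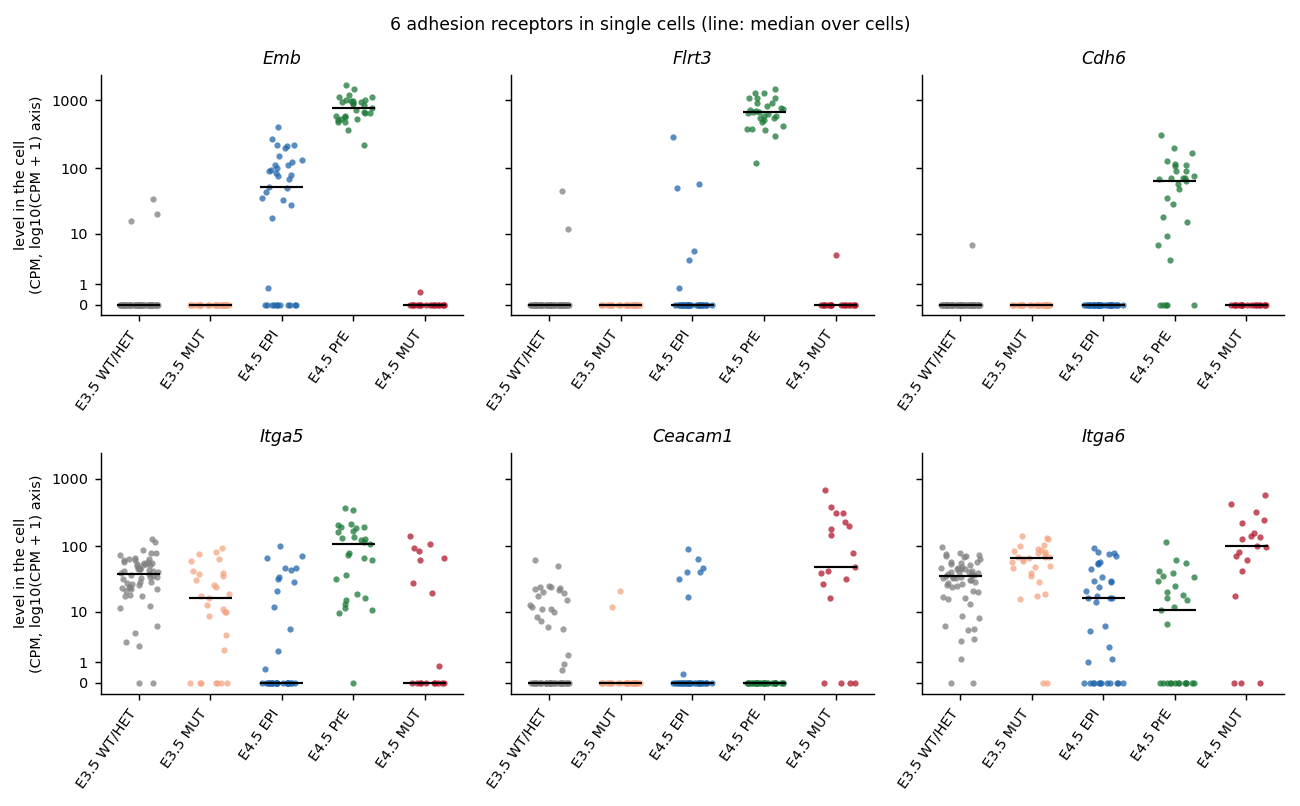
Levels of 6 receptors in single cells (points; CPM on a log10(CPM + 1) axis) with the median over cells as a line. Emb and Flrt3 are above 100 CPM in all 29 PrE cells, Emb spreads from 0 to 410 CPM in EPI, and Ceacam1 is detected in 15 of 19 E4.5 MUT cells and in no PrE cell.

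Epcam (chr17:87635979-87651129, plus strand) was the most abundant of the 10 per length in every group but PrE, at 431 FPKM (CPM per kilobase of exon) ± 40.8 (SD, n = 7) in E3.5 WT/HET, and had counts in all 172 cells. In PrE its mean, 86.6 FPKM, was below those of Flrt3 (152 FPKM) and Emb (106 FPKM). Its E3.5 levels were 870, 927 and 1082 CPM in WT/HET and 1138, 1147, 779 and 1305 CPM in MUT, which overlapped. At E4.5 it was lower in both control lineages, at 199, 357 and 523 CPM in EPI and 94.4, 192 and 339 CPM in PrE, each below every E3.5 embryo. The log2 fold change from E3.5 WT/HET was -1.37 ± 0.18 to EPI and -2.31 ± 0.27 to PrE. The E4.5 MUT embryos, at 561 and 934 CPM, stood above all EPI and PrE sums and overlapped the E3.5 ranges. One MUT cell at 4640 CPM held 30.99% of the Epcam counts of its group, whereas the median MUT cell was at 457 CPM and the median EPI cell at 386 CPM. With cells weighted equally the log2 fold change from EPI to E4.5 MUT was 0.42 in place of 1.00 ± 0.32.

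Cdh1 (chr8:106603351-106670246, plus strand), E-cadherin, overlapped between genotypes at E3.5, with 151, 184 and 277 CPM in WT/HET embryos and 194, 120, 135 and 194 CPM in the MUT embryos. It lay at 43.9, 96.5 and 125 CPM in EPI, at 49.7, 82.5 and 182 CPM in PrE and at 100.5 and 139 CPM in E4.5 MUT. EPI did not overlap E3.5 WT/HET (log2 fold change -1.03 ± 0.23), while PrE did (-1.09 ± 0.27), and EPI and PrE overlapped each other. All 58 E3.5 WT/HET and 29 E3.5 MUT cells had Cdh1 counts, as did 36 of 37 EPI and 27 of 29 PrE cells, but in E4.5 MUT only 14 of 19 cells did (73.7%, 48.8 to 90.9%), in 63.6% and 87.5% of the cells of its 2 embryos.

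Itgb1 (chr8:128685654-128733200, plus strand), the beta subunit that pairs with all 3 alpha subunits here, lay at 111, 238 and 322 CPM in E3.5 WT/HET and at 213, 91.4, 77.2 and 182 CPM in E3.5 MUT, overlapping. It lay at 40.1, 79.6 and 105 CPM in EPI, at 81.4, 117 and 142 CPM in PrE and at 165 and 90.4 CPM in E4.5 MUT. EPI was below every E3.5 WT/HET embryo (log2 fold change -1.55 ± 0.29), while groups next to each other in the order of levels overlapped. Itgav (chr2:83724397-83806916, plus strand) was the lowest of the integrin subunits per length (mean 0.516 to 2.28 FPKM over the 5 groups). It lay at 5.25, 9.20 and 23.5 CPM in E3.5 WT/HET, 14.7, 8.25, 17.6 and 25.7 CPM in E3.5 MUT, 5.10, 11.3 and 38.3 CPM in EPI, 0, 3.09 and 14.012 CPM in PrE and 30.4 and 18.6 CPM in E4.5 MUT. E4.5 MUT was above all PrE sums, and the other groups overlapped. A single PrE cell held 44.6% of the Itgav counts of that group.

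Set per length, the alpha subunits changed places between groups. Of the summed FPKM of Itga5, Itga6 and Itgav, Itga5 made up 61.4% ± 7.72 (SD, n = 7 embryos) in E3.5 WT/HET and Itga6 30.3% ± 4.15. In PrE the Itga5 share was 89.3% ± 7.49 (n = 6), from 75.7 to 96.4%, above every embryo of all other groups. In E3.5 MUT Itga6 took the larger share in all 4 embryos, 54.4% ± 6.93 against 34.7% ± 10.4 for Itga5, and the Itga6 shares (47.8 to 62.8%) did not overlap those of WT/HET (23.9 to 35.7%). In E4.5 MUT Itga6 made up 62.4 and 64.9%. EPI embryos varied most, with Itga6 at 18.8 to 67.9%, Itga5 at 10.2 to 74.6% and Itgav at 6.58 to 55.4%, at the lowest sum of the 3 (5.99 FPKM ± 1.47) of the 5 groups. The sum was 25.2 FPKM ± 15.2 in PrE, 23.3 FPKM ± 7.46 (n = 2) in E4.5 MUT, 13.6 FPKM ± 3.20 in E3.5 WT/HET and 15.1 FPKM ± 4.65 (n = 4) in E3.5 MUT.

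**Figure D4:**
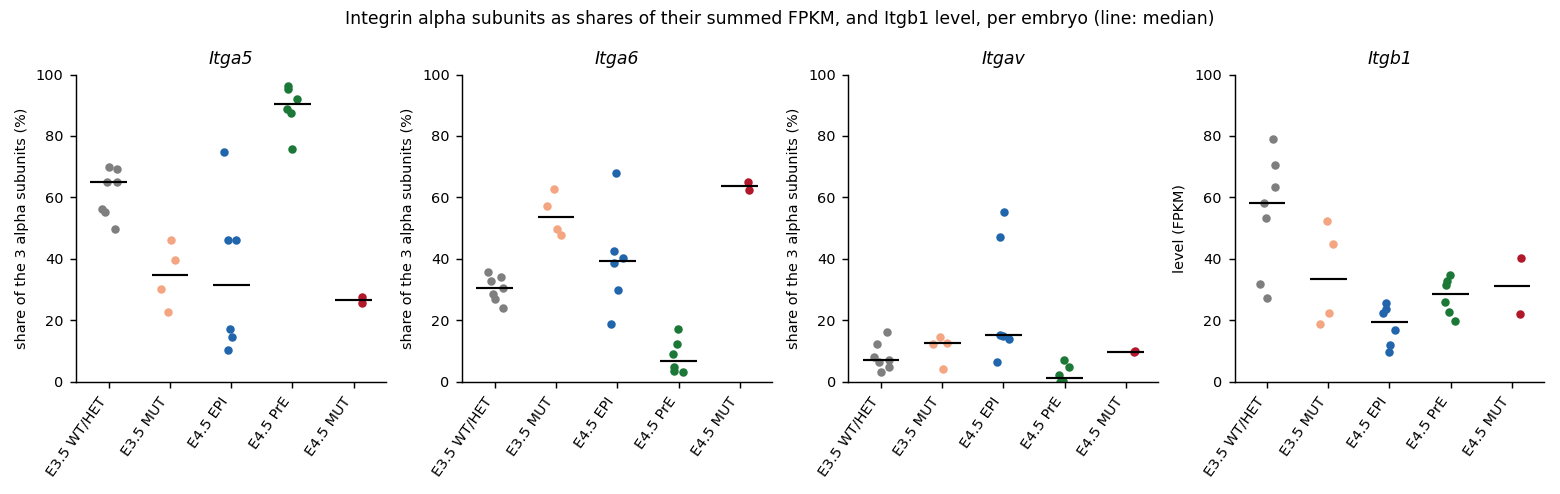
Share of Itga5, Itga6 and Itgav in their summed FPKM (percent) and the Itgb1 level (FPKM) in each embryo sum (points) of the 5 groups, with the median as a line. Itga5 makes up 75.7 to 96.4% in PrE, Itga6 makes up 47.8 to 64.9% in the MUT embryos of both stages, and EPI embryos are spread widely.

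In E3.5 HET against WT none of the 9 that passed the filter was called (edgeR quasi-likelihood test with Benjamini-Hochberg adjustment over 13351 genes), with adjusted p from 0.575 to 0.996, among 0% called higher and 0% called lower of all genes. At an unadjusted p under 0.05 there were 1056 genes, among them 1 receptor, Cdh1, and DESeq2 called 181 genes but none of the receptors. Cdh1 lay at 222 and 277 CPM in the 2 HET embryos and at 151 to 186 CPM in the 5 WT embryos, without overlap, with a log2 fold change of 0.52 ± 0.17 and an adjusted p of 0.575. For Epcam, Itgb1, Itga5 and Itga6 the log2 fold changes were 0.09 ± 0.14, 0.02 ± 0.40, 0.13 ± 0.34 and 0.25 ± 0.34, and for Itgav, Emb, Ceacam1 and Flrt3 they were 0.68 ± 0.55, 0.50 ± 2.33, -1.71 ± 1.21 and 4.15 ± 2.24, all with overlapping embryos. With 2 HET embryos the errors of these receptors other than Epcam leave room for differences of the size seen for Cdh1.

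The background for the other comparisons was as follows. Between E3.5 MUT and WT/HET 3.2% of 12075 tested genes were called higher and 2.98% lower, and of 7 receptors tested 1 (Itga6) was higher, which was lost without any 1 of 7 of the 11 embryos (9, 11, 12, 14, 16, 17 or 19). In E4.5 MUT against EPI 2.3% were called higher and 2.62% lower of 12953, and of 9 receptors 1 (Itga6) was higher and 1 (Emb) lower, with 0 called without either MUT embryo. In E4.5 MUT against PrE 1.74% were called higher and 2.07% lower of 12246, and of 10 receptors 2 were higher (Ceacam1 and Epcam) and 3 lower (Emb, Cdh6 and Flrt3). From E3.5 WT/HET to EPI 15.5% were called higher and 16.4% lower of 11142, and of 8 receptors 1 (Emb) was higher and 4 lower (Itga5, Itgb1, Epcam and Cdh1). From E3.5 WT/HET to PrE 14.8% were called higher and 16.9% lower of 10800, and of 10 receptors 4 were higher (Emb, Flrt3, Cdh6 and Itga5) and 4 lower (Ceacam1, Epcam, Cdh1 and Itgb1). From E3.5 MUT to E4.5 MUT 3.08% were called higher and 3.69% lower of 12714, and of 7 receptors 1 (Ceacam1) was higher, which was lost in 5 of 6 leave-outs, all but that of embryo 10. The comparisons share embryos, and nothing is read from these counts because the receptors were picked with them known.

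A wider list of 168 adhesion genes in 8 families, none of them among the 10, shows the surroundings in which these receptors changed. Adjusted p-values of the genome-wide test are given here, but the list too was drawn up with earlier results of these data known. Most genes named below were picked by size among called genes of the same fits. Their p-values are therefore no independent evidence, and EPI and PrE were themselves assigned from these transcriptomes. Between EPI and PrE, 67 of the 168 were tested, of which 5 were higher and 13 lower in EPI (median log2 fold change -0.27, against 0.03 over all genes). Ligands of integrins were among them. Laminin chains were lower in EPI: Lama1 (1.9 against 1165 CPM, log2 fold change -9.41 ± 0.86, edgeR adjusted p = 8.5e-06), Lamb1 (14.9 against 1768 CPM, -6.87 ± 0.70, adjusted p = 2.1e-05) and Lamc1 (42.8 against 918 CPM, -4.42 ± 0.30, adjusted p = 7.5e-07), together with the collagen IV chain Col4a1 (-7.30 ± 0.82). Fn1, fibronectin, went the other way, at 391 CPM ± 105 (SD, n = 6) in EPI and 42.5 CPM ± 23.3 in PrE (3.22 ± 0.35, adjusted p = 3.7e-05), so the fibronectin-binding Itga5 and its ligand were highest in different lineages. Jam2, a junctional adhesion molecule, was higher in EPI (6.30 ± 0.80, adjusted p = 0.00015) and Jam3, its relative, lower, as was Bsg (basigin), a relative of embigin (-0.49 ± 0.12, adjusted p = 0.019). The P-cadherin gene Cdh3 was higher in EPI (5.55 ± 1.45, adjusted p = 0.025, and 8.24 with the embryo as a block), though embryos overlapped, and so was Pecam1 (4.56 ± 1.28, adjusted p = 0.037). Leaving out 1 embryo ended the calls of Cdh3 (embryo 4, 6 or 7, adjusted p 0.071 to 0.087), Pecam1 (any embryo but 1, 0.07 to 0.084), Bsg (embryo 2, 5 or 7, 0.053 to 0.066) and Jam3 (embryo 1, 2, 5 or 7, 0.052 to 0.076).

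The other integrin genes of the list showed no call between EPI and PrE in 3 tested of 22, and the 9 catenins and other cadherin partners tested showed none. The catenins that tie cadherins to actin overlapped: Ctnnb1 lay at 239 CPM ± 90.9 in EPI and 224 CPM ± 45.9 in PrE (0.10 ± 0.25, adjusted p = 0.90), and Ctnna1 at 285 CPM ± 73.9 and 223 CPM ± 74.4 (0.34 ± 0.23, adjusted p = 0.45). Ctnnd1 lay at 10.8 CPM ± 7.1 and 15.4 CPM ± 4.1. Unc5b, a receptor for FLRT3, was low, at 6.4 CPM ± 10.2 in EPI and 11.7 CPM ± 12.3 in PrE (-0.88 ± 1.61, adjusted p = 0.84).

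**Figure D5:**
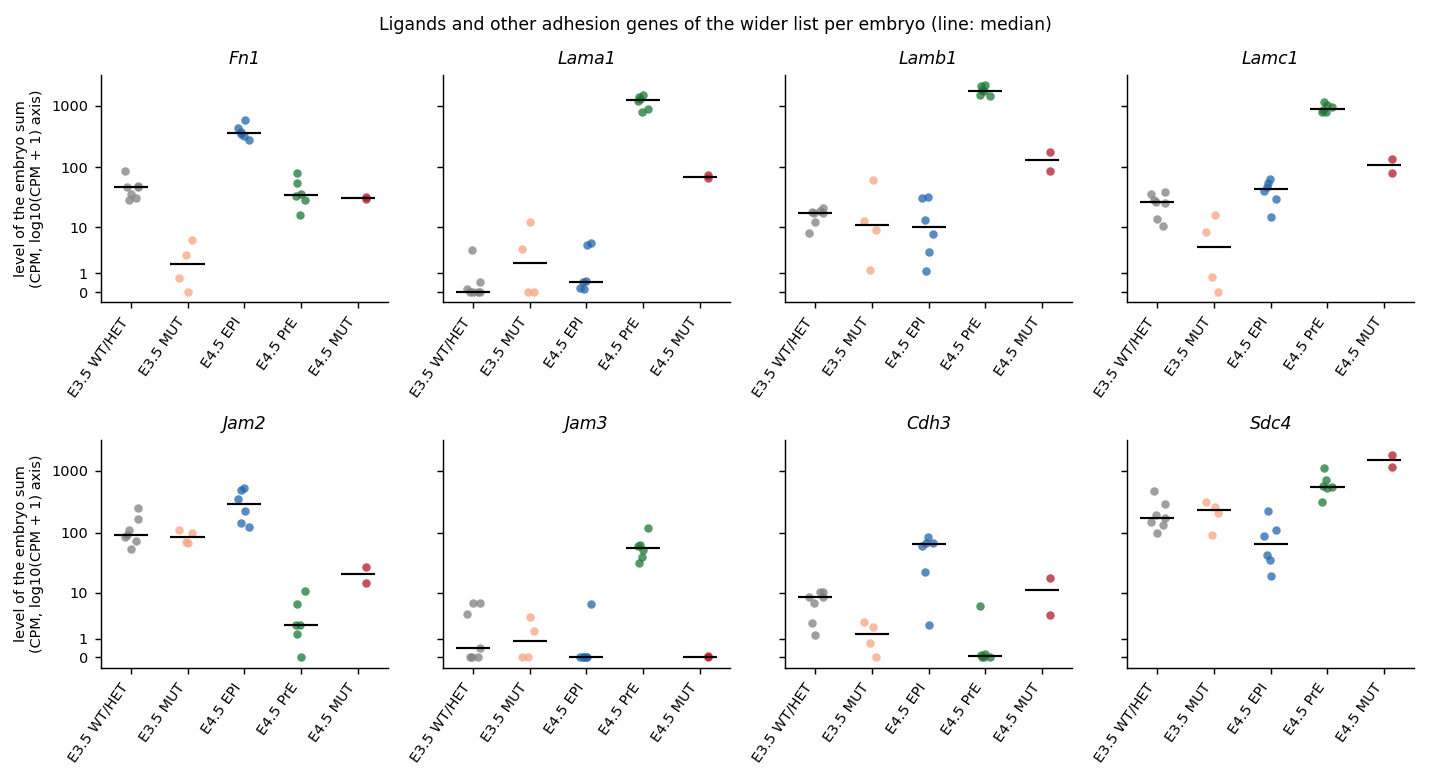
Levels of 8 adhesion genes of the wider list in each embryo sum (points; CPM on a log10(CPM + 1) axis) with the median as a line. Lama1, Lamb1 and Lamc1 lie between 774 and 2149 CPM in PrE, Fn1 is highest in EPI and lowest in E3.5 MUT, and Sdc4 is highest in the 2 E4.5 MUT embryos.

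In E3.5 MUT against WT/HET, 75 list genes were tested, 5 higher and 7 lower (median -0.09, against -0.02). Fn1 was lower (mean 2.4 CPM ± 2.7, n = 4, for MUT; mean 47.2 CPM ± 19.5, n = 7, for WT/HET; -4.32 ± 0.88, adjusted p = 0.013), as were Jup, plakoglobin of cell junctions (20.1 against 117 CPM; -2.52 ± 0.39, adjusted p = 0.0039), and the laminin chain Lama5 (-1.70 ± 0.46, adjusted p = 0.048, and 0.063 to 0.12 without any 1 of 9 of the 11 embryos). Col4a1 (2.11 ± 0.30, adjusted p = 0.0027), Col4a2 (1.42 ± 0.24) and Slc3a2, a heavy chain that binds beta1 integrins (1.18 ± 0.24, adjusted p = 0.012), were higher. The 6 tested integrin genes of the list outside the 10 were not called, Itgb5 among them (0.00 ± 0.60), and the embryos of the catenin genes Ctnna1, Ctnnb1 and Ctnnd1 overlapped, unlike those of Jup, with Ctnnb1 at 239 CPM ± 56.96 (MUT) and 250 CPM ± 25.3 (WT/HET).

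In E4.5 MUT against EPI, 97 list genes were tested, 9 higher and 4 lower (median 0.25, against -0.03). Sdc4, the heparan sulfate proteoglycan syndecan-4, was higher (1475 CPM ± 440, n = 2, against 87.02 CPM ± 75.1; 4.04 ± 0.69, adjusted p = 0.010, and 0.062 without embryo 8), as were Lama1 (71.2 against 1.9 CPM, 5.23 ± 1.29, adjusted p = 0.049) and Col4a1 (114 against 3.0 CPM, 5.19 ± 1.22, adjusted p = 0.042). Both calls were lost without either MUT embryo (0.14 to 0.19), and also without EPI embryo 2, 5 or 7, or 6 for Lama1 and 4 for Col4a1 (0.052 to 0.084). Fn1 (31.5 against 391 CPM, -3.69 ± 0.36, adjusted p = 0.00055), Jam2 (-3.93 ± 0.73, adjusted p = 0.016) and the syndecan Sdc1, at 0 in both MUT embryos and at least 161-fold higher in EPI over pooled counts, were lower, but without either MUT embryo Jam2 (0.14 and 0.0701) and Sdc1 (0.097 and 0.074) were not called, nor was Sdc1 with cells weighted equally (-1.85, limma-trend, adjusted p = 0.11). Against PrE, 91 were tested, 8 higher and 6 lower (median 0.37, against 0.05). Lama1 (71.2 against 1165 CPM, -4.04 ± 0.32, adjusted p = 0.00020), Lamb1 (132 against 1768 CPM, -3.75 ± 0.34) and Lamc1 (108 against 918 CPM, -3.10 ± 0.28, adjusted p = 0.00039) were lower in MUT, so the laminins stood between EPI and PrE. Jam3 was also lower, with 1 count in MUT, and the protocadherin Pcdh19 was at 0 in MUT and at least 306-fold higher in PrE (adjusted p = 0.0078, and 0.063 without embryo 3). The integrin adaptor Lims1 (135 against 26.3 CPM, 2.33 ± 0.42, adjusted p = 0.015) and the tetraspanin Tspan8 were higher in MUT. Lims1 lost its call without either MUT embryo (adjusted p = 0.17 and 0.073) and with cells weighted equally (limma-trend, 0.053), and Tspan8 without embryo 8 (0.23) or 5 (0.052). No integrin of the list outside the 10 was called in either comparison: Itga3, another laminin-binding alpha subunit, was at 0 in both MUT embryos against 17.8 CPM ± 13.7 in EPI and 36.6 CPM ± 39.96 in PrE (adjusted p = 0.076 and 0.085), and Itgb5, a partner of Itgav, lay at 94.1 CPM ± 45.7 against 32.2 CPM ± 19.3 and 17.4 CPM ± 13.8 (adjusted p = 0.25 and 0.35). Itgb3, another partner of Itgav, had counts in 3 cells of all 172.

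The list was also followed from E3.5 to E4.5. From E3.5 WT/HET to EPI, 71 list genes were tested, 14 higher and 8 lower (median 0.06, against -0.06), where 15.5% of all genes were called higher and 16.4% lower. To PrE 78 were tested, 17 higher and 12 lower (0.04, against -0.10), where the shares of all genes were 14.8% and 16.9%. Icam1 (6.18 ± 1.17, adjusted p = 0.000845), Fn1 (3.07 ± 0.25, adjusted p = 7.0e-07) and Cdh3 (2.95 ± 0.66, adjusted p = 0.0030) rose most towards EPI, where Tspan8 (-5.16 ± 1.29), Col4a1 (-2.53 ± 0.89, adjusted p = 0.041, and 0.053 to 0.075 without any 1 of 9 of the 13 embryos) and the giant cadherin Fat1 (-1.98 ± 0.40) fell. Lama1 (10.90 ± 0.95, adjusted p = 7.9e-07), Pcdh19 (9.17 ± 1.00) and Lamb1 (6.74 ± 0.23, adjusted p = 6.2e-11) rose most towards PrE, where Lama3, with 1 count left, Tspan8, with 2, and the collagen-binding integrin Itga1 (-6.19 ± 1.08, adjusted p = 0.00043) fell. In MUT, from E3.5 to E4.5, 88 were tested, 9 higher and 1 lower (median 1.37, against -0.03). Alcam (7.30 ± 1.23, adjusted p = 0.020) and Icam1 (3.07 ± 0.61, adjusted p = 0.033) rose, and Jam2 fell (-2.14 ± 0.47, adjusted p = 0.043). These 3 calls were lost without either E4.5 MUT embryo (adjusted p 0.067 to 0.17), those of Icam1 and Jam2 also without any 1 of the 4 E3.5 MUT embryos (0.051 to 0.10) and that of Alcam without embryo 17 (0.057). With cells weighted equally Icam1 changed by 1.15 and was not called (limma-trend, adjusted p = 0.21). With WT embryos as the only controls, calls named above were lost, among them those for Lama5 and Slc3a2 in E3.5 MUT, for Cdh3, Lamb1, Col4a1, Pecam1 and Jam2 between EPI and PrE, for Lama1, Col4a1 and Sdc1 between E4.5 MUT and EPI, for Pcdh19, Lims1, Jam3 and Tspan8 between E4.5 MUT and PrE, and for Col4a1 and Tspan8 towards EPI (adjusted p 0.0508 to 0.21).

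The genes whose pattern over the 25 sums lay nearest to each receptor were found by Pearson's r of log2(CPM + 1) among 7809 genes of 10 CPM or more on average. The sums share plates, embryos and depth, and the values are descriptions. Cdh6 lay nearest to Pla2g12b (r = 0.98) and Plac1 (0.97), Flrt3 to Sox7 (0.93) among others, and Emb to Eps8 (0.91) and Dnmt3a (0.91). Itga5 lay nearest to Smad2 (0.84) and Msx2 (0.83), Itga6 to Syngr1 (0.83) and Zfand2a (0.82), and Ceacam1 to Abcg1 (0.81) and Cldn3 (0.78). Epcam lay nearest to Anapc10 (0.93) and the cadherin Fat1 (0.92), Cdh1 to Vps54 (0.87) and Washc5 (0.85), Itgav to Them4 (0.77) and Tm2d3 (0.76), and Itgb1 to Sh3glb1 (0.75) and C330007P06Rik (0.73).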

How the data were processed

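RNA of 172 single ICM cells was counted. The authors deposited 1 file of read-pair counts per gene and cell, not normalized. The notes name STAR (2.5.2a in the study's methods), HTSeq and mm10, with Ensembl release 87. Whether counting used strand is not given in the sources used here. Reads that fell outside any gene (4.72%), hit several genes (8.65%) or had several alignments (32.3%) stayed out of library sizes and tests. Cells held 363819 to 4644070 counts. Embryo numbers and plates came from the study's supplementary sample table, and the labels give groups. That samples are separate embryos rests on that table.

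Counts were summed per embryo (EPI and PrE apart) and tested in edgeR 4.0.16 (filterByExpr, TMM, quasi-likelihood F test, Benjamini-Hochberg adjustment over all tested genes, threshold 0.05), within the groups compared. The procedure was also run on simulated counts with the same spread for all genes and independent sums, which lack the unevenness between cells seen here. No result above rests on that run. The SE of a log2 fold change was derived from that test, as the absolute fold change divided by the square root of F. For the receptors it is a description, like the fold change. FPKM divides CPM by exon length in GENCODE M21 (GRCm38). Floors took 3 counts over a group, treated counts as independent and are no lower limits where counts gather in few cells. EPI and PrE sums came from the same embryos; deviations of the pairs from their group means correlated at 0.00894 to 0.0661. Alternatives were DESeq2 1.42.0, its size factors in edgeR, no filter, limma-trend (3.58.1) with cells weighted equally, 9 shallow cells left out, WT controls only, each embryo left out and an embryo block. R was 4.3.3.

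The 10 receptors, the wider list and the tests were chosen with earlier results of these data known. Named list genes were, in each comparison, the 3 largest log2 fold changes per direction among called genes of 5 CPM or more, plus direct partners of the receptors. The study tested cells, not embryos. Some genes that this rule or the search for similar patterns picked are not reported here.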

Additional observations from a re-analysis of the deposited data

Results flagged for a closer look

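In 4 of 35 groups of 4 to 7 embryos with differing values, 1 embryo stood far from the others for a receptor. About 1 in 20 groups would do so by chance if values were normally distributed, which levels at or near 0 are not. Cdh6 and Flrt3 in E3.5 WT/HET were at 0 in most embryos, so no excess over chance is read from this count. Flrt3 in EPI was 69.7 CPM in embryo 2, against 17.1 CPM in the next embryo and 0 in the lowest. Flrt3 in E3.5 WT/HET was 7.70 CPM in HET embryo 16, against 1.01 CPM in the next. Cdh6 in E3.5 WT/HET was 1.37 CPM in WT embryo 11 and 0 in the other 6, from 1 cell. Itga5 in E3.5 WT/HET was 19.7 CPM in WT embryo 18, against 40.4 CPM in the next lowest.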

How the results depend on the processing

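Of 914 re-computed fold changes of the receptors between the 5 groups, 858 moved by less than the spread between embryos, 56 moved by more and no called value changed sign, and all 50 levels stayed within 1 SD with cells weighted equally. With DESeq2 the wider list had 27 calls for E4.5 MUT against EPI (13 with edgeR), 26 against PrE (14), 25 from E3.5 MUT to E4.5 MUT (10), 18 for E3.5 MUT against WT/HET (12) and 1 for HET against WT (0), and 4 receptors in place of 2 were called against EPI. With cells weighted equally in limma-trend the list had 19, 21, 41, 47 and 19 calls (E3.5 MUT against WT/HET, E4.5 MUT against EPI, E3.5 to EPI, E3.5 to PrE, E3.5 MUT to E4.5 MUT; 12, 13, 22, 29 and 10 with edgeR) and 2 receptors were called from E3.5 MUT to E4.5 MUT (1). There the median of all genes shifted by -0.23, -0.20, -0.63, -0.62 and -0.44. When HET embryos were dropped from the controls, leaving fewer samples, the list had 7 calls for E3.5 MUT, 1 for EPI against PrE (18), 5 against EPI and 1 against PrE, and the receptors 0, 0, 0 and 2 (1, 4, 2 and 5). With no filter the receptor call in E3.5 MUT was 0. Leaving out 1 embryo gave 9 to 12 list calls in E3.5 MUT, 10 to 15 for EPI against PrE, 5 to 15 and 7 to 18 for E4.5 MUT against EPI and PrE, and 0 to 7 from E3.5 MUT to E4.5 MUT. Receptor calls were 0 to 1, 4 to 4, 0 to 2, 3 to 5 and 0 to 1 in the same order.

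For HET against WT, where no receptor was called, signs turned with cells weighted equally for Itga6 (-0.19), Itgav (-0.19) and Itgb1 (-0.10). Leaving out 1 embryo gave -0.035 to 0.24 for Itga5, -0.11 to 0.53 for Itga6, -0.16 to 1.202 for Itgav, -0.15 to 0.20 for Itgb1, -6.56 to 1.62 for Emb and -4.42 to 5.14 for Flrt3. The cause of these changes was not tested. With the embryo as a block, EPI against PrE gave 16 list calls (18) and 4 receptor calls (4), and the fold change of Flrt3 was -8.84 in place of -5.66. Levels that rest on few counts are limited by depth. They include Cdh6 outside PrE, Emb outside PrE and EPI, and Flrt3 outside PrE, also in most EPI embryos.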
